A study of Mus musculus with 9 samples.

Results

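The genes of MHC class I antigen presentation and the immunoproteasome were examined in macrophage lines expanded from mouse yolk sac (YS), fetal liver (FL) or bone marrow (BM). The 10 genes were chosen by symbol, not by their measured values, from the 24411 genes of the deposited expression table: the heavy chains H2-K1 and H2-D1, the light chain B2m, the peptide transporter subunits Tap1 and Tap2, the loading chaperone Tapbp, the inducible proteasome subunits Psmb8, Psmb9 and Psmb10, and the transactivator Nlrc5. All 10 were at or above 1 TPM (the unit of the table, a share of all transcripts in a library) in each of the 9 lines, and so all entered the tests.

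Of the 9 lines, all from C57BL/6 mice, 3 had been grown from yolk sac at E9.5 (YS lines), 3 from fetal liver at E14.5 (FL lines) and 3 from adult bone marrow (BM lines). Each line was 1 bulk culture of proliferating macrophages from a separate dish or well, and the starting cells had been pooled from more than 1 mouse. All 9 lines were kept in 100 ng/mL M-CSF, with no interferon or other stimulus given in the labels. Poly(A) RNA from each line gave 1 library, and the deposited TPM divide reads by transcript length and bring each library to the same total, so that levels can be set side by side between genes. Whether the 3 lines of a group came from 1 pool of cells or from separate pools is not stated. The p-values below measure the spread between lines of such pooled cultures, not between animals.

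MHC class I molecules display peptides of intracellular proteins on the cell surface to CD8 T cells. The proteasome cuts proteins into peptides, the TAP transporter moves these into the endoplasmic reticulum, and tapasin, the product of Tapbp, holds the empty heavy chain with beta-2 microglobulin next to TAP until a peptide is bound. Interferon raises transcription of this set, and the transactivator NLRC5 that of class I genes within it. The inducible subunits then replace the constitutive catalytic subunits of the proteasome. Macrophages carry class I at rest and increase it when activated.

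Of the 10 genes, 7 lie on chromosome 17, Psmb10 and Nlrc5 on chromosome 8 and B2m on chromosome 2. Psmb9, Tap1, Psmb8 and Tap2 are consecutive protein-coding genes, between the class II genes H2-DMb1 and H2-Ob. Psmb9 and Tap1 start 225 bases apart and run in opposite directions, so that a single stretch serves as the upstream region of both. That stretch is shown because it belongs to a pair of genes whose levels differed between YS and BM lines. The upstream regions of Psmb8, which also differed, and of B2m and H2-D1, which did not pass the test, follow for comparison. All are from RefSeq on GRCm38.p6, which held this region for 8 of the 10 genes (for Tap2 and Nlrc5 it was not used here). They are written 5′ to 3′ on the strand of the gene (for the shared stretch, the strand of Tap1) and end at the base before the start site. Capitals mark matches on either strand to the ISRE (GAAA, NN and GAAA in a row), the GAS element (TTCNNNGAA), the kappaB motif, CCAAT, the CRE half-site (TGACG) or the GC box (GGGCGG).
Psmb9-Tap1, chr17:34187331-34187555 (+): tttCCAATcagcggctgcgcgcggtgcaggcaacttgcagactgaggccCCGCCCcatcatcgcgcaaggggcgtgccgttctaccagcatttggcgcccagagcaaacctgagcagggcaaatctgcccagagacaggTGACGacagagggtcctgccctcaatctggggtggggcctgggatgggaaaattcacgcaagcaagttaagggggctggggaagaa
Psmb8, chr17:34197945-34198194 (+): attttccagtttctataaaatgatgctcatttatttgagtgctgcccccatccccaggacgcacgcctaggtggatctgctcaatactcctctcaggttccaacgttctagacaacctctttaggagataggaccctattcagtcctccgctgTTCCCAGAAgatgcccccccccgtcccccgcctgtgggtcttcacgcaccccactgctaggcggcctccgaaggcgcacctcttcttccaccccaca
B2m, chr2:122147437-122147686 (+): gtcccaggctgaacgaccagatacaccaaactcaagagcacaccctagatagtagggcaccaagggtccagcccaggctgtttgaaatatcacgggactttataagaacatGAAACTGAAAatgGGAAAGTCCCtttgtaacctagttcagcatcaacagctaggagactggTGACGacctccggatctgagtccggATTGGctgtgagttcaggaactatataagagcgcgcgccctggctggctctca
H2-D1, chr17:35262844-35263093 (+): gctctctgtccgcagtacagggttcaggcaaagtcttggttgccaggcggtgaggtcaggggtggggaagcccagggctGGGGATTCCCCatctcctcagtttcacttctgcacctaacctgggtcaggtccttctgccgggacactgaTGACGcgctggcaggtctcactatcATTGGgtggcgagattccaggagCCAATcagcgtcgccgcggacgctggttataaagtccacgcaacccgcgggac

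Among the members with a sequence, an exact match to the ISRE pattern above was present in the 250 upstream bases of B2m only, at -139 to -130. The ISRE is the binding motif of interferon-activated factors. Variants of the pattern were not searched for, so the other members, H2-K1 and H2-D1 included, cannot be said to lack such a site. The GAS letters, a motif of the interferon gamma response, were in Psmb8 only, at -97 to -89. Matches to kappaB, the NF-κB motif, stood in B2m at -126 to -117, in H2-D1 at -171 to -161 and in H2-K1 at -111 to -101, the last pair as overlapping matches of the same letters. The Psmb9-Tap1 stretch held 1 CCAAT, 1 TGACG and 1 GC box, and none of the other 3 motifs. Over 27025 promoters of this length, 3.04% held the ISRE, 7.18% the GAS, 7.01% the kappaB motif, 34.5% CCAAT, 17.9% TGACG and 32.9% the GC box. These are matches of letters in a fixed window, not measured binding, and a missing match says nothing of the factor.

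The lines carried the markers of macrophages. All 7 macrophage markers were detected in every group. Their levels differed between groups in both directions: Fcgr1 was lowest in the BM lines (1.68 to 42.1 TPM against 110.1 to 329.9 TPM in the other lines), and Lyz2 in the YS lines (1163 to 3531 TPM against 5806 TPM or more). Mertk was highest in the FL lines, at 48.1 to 90.5 TPM against 9.67 to 21.9 TPM in the other lines, and the other 4 did not pass the test in any comparison. The 4 T cell markers were listed at 0 in all 9 lines, and the 4 B cell markers were at 0.99 TPM or less. BM line 2 stood apart with 214.99 TPM of the globin gene Hba-a1. The counts of called members and related genes between YS and BM lines are also given without BM line 2 below. The summed endothelial markers were at 21.94 to 55.75 TPM in the YS lines, 18.85 to 51.68 TPM in the FL lines and 0.17 to 2.64 TPM in the BM lines. The sum thus moved with the YS and FL against BM differences, but its single genes did not all do so. In the FL lines it came mostly from Kdr, with Tie1 at 1.54 TPM or less. YS line 1 had 25.8 TPM of Tie1 but 0.29 TPM of Kdr, within the BM range of 0.03 to 0.86 TPM. Tek was at 0.04 TPM or less in all lines. The dendritic cell markers summed to 6.82 to 7.86 TPM in the YS lines, 2.57 to 6.59 TPM in the FL lines and 2.82 to 3.24 TPM in the BM lines, mostly from Zbtb46. The neutrophil and progenitor markers summed to 1.53 to 16.2 TPM, 1.2 to 18.4 TPM and 0 to 0.34 TPM, mostly from Cd34. Hepatocyte markers, mostly Afp, summed to 1.03 to 6.75 TPM in the YS lines, 9.0 to 20.6 TPM in the FL lines and 3.1 to 12.5 TPM in the BM lines. The part of these markers in the differences was not tested. In bulk RNA, fewer cells of a type and less RNA per cell cannot be told apart.

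The inducible proteasome subunits, both TAP subunits and Nlrc5 were higher in the YS lines than in the BM lines, whereas H2-K1, H2-D1, B2m and Tapbp did not pass the test. Differences below are on the log2(TPM + 1) scale with their SE, tested with limma and adjusted over all 11753 genes tested. A gene was called at an adjusted p under 0.1 and more than 2-fold. Between YS and BM lines, 5 of the 10 members were called (Tap1, Psmb8, Psmb9, Psmb10 and Nlrc5), all higher in the YS lines, against 7.57% of all tested genes called higher. With Tap2, 6 members passed the adjusted p alone, against 23.5% of all tested genes that passed it as higher (14.4% as lower), and for the same 6 every YS line was above every BM line, against 30.3% of all tested genes. The median difference of the 10 was 0.95, against 0.11 over all tested genes.

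**Figure D1:**
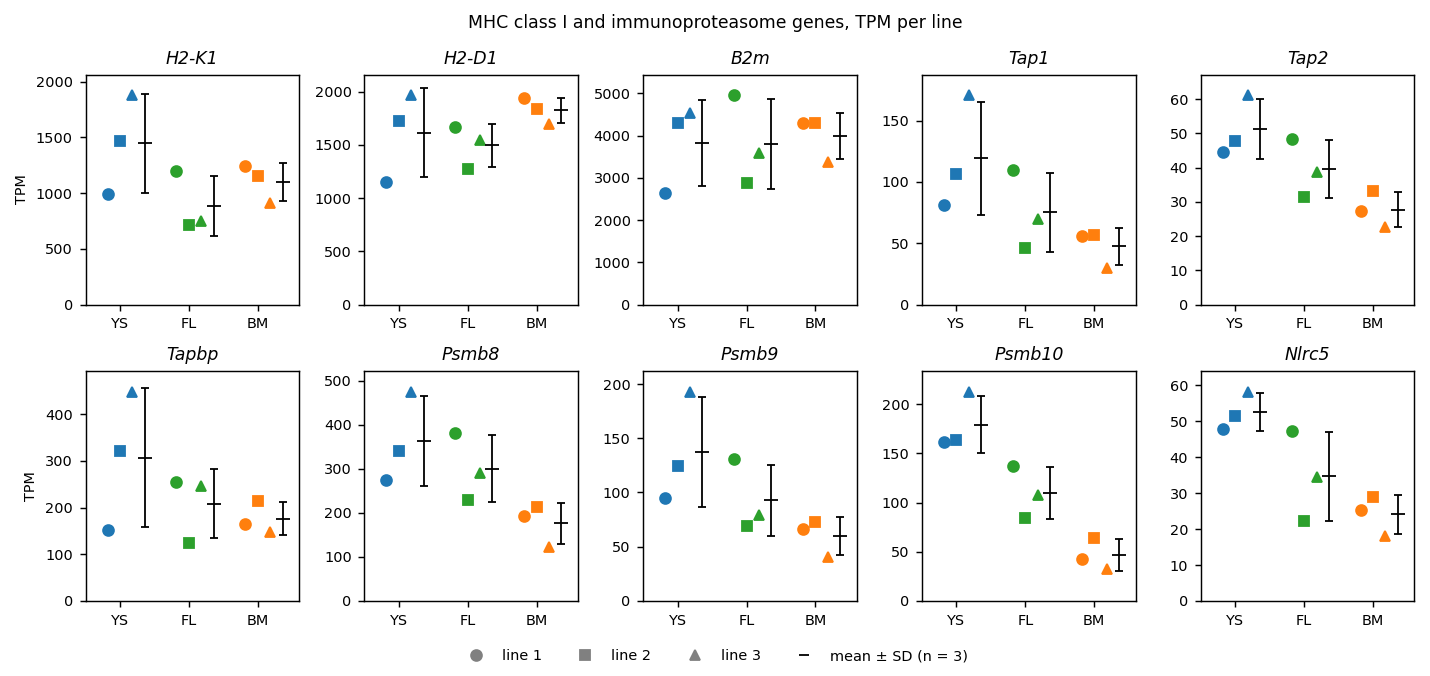
TPM of the 10 genes in each line (vertical axes from 0, a separate scale for each gene). Colours mark the groups, symbols the line numbers, and the bars to the right the mean ± SD of 3 lines. The 3 YS lines lie above the 3 BM lines for Tap1, Tap2, Psmb8, Psmb9, Psmb10 and Nlrc5, and overlap them for H2-K1, H2-D1, B2m and Tapbp.

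The chains of the class I molecule were the most abundant members. H2-K1, a classical heavy chain, was at 992, 1472 and 1876 TPM in the YS lines 1, 2 and 3, at 1195, 715 and 749 TPM in the FL lines and at 1239.7, 1154 and 907 TPM in the BM lines. The groups overlapped in every comparison. The largest difference was that of YS against FL lines, 0.70 ± 0.27 (95% confidence interval 0.08 to 1.32, limma adjusted p = 0.158), which did not pass the test.

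H2-D1, the other classical heavy chain of this strain, was at 1151, 1727 and 1964 TPM in the YS lines, 1664, 1275 and 1547 TPM in the FL lines and 1939.8, 1832 and 1699 TPM in the BM lines. Every FL line was below every BM line, as in 18.5% of all tested genes, and the difference of -0.29 ± 0.20 had an adjusted p of 0.346 by limma. Between YS and BM lines the H2-D1 difference was -0.21, with an interval of -0.67 to 0.25 that leaves out a 2-fold change either way.

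B2m, the light chain shared by all class I molecules, had 2645, 4291 and 4535 TPM in the YS lines, 4950.0, 2866 and 3581 TPM in the FL lines and 4291, 4305 and 3372 TPM in the BM lines. No order of the groups was visible. The YS against BM difference was -0.09 (interval -0.69 to 0.51, limma adjusted p = 0.817).

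Within a line, B2m stood at 1.25 ± 0.08 times the summed heavy chains in the YS lines, 1.58 ± 0.15 in the FL lines and 1.36 ± 0.07 in the BM lines (SD, n = 3). The ratio of H2-D1 to H2-K1 was 1.13 ± 0.07 in the YS lines, 1.75 ± 0.34 in the FL lines and 1.68 ± 0.17 in the BM lines, with all 3 YS lines (1.05 to 1.17) below all other lines (1.39 to 2.06). These ratios were chosen after the values were seen and have no test. H2-K1 and H2-D1 resemble each other and other class I genes: 1.12% of the 75-base stretches of H2-K1 and 6.15% of those of H2-D1 occur in transcripts of other genes of GENCODE M21, so part of their reads had to be divided by the quantifier.

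The transporter came next. Tap1, which forms the peptide channel together with Tap2, was at 80.8, 106 and 171 TPM in the YS lines, 109.6, 46.1 and 69.7 TPM in the FL lines and 55.8, 56.9 and 30.1 TPM in the BM lines. The lowest YS line stood above the highest BM line, and the FL lines spanned both. The YS against BM difference was 1.29 ± 0.39, or 2.45-fold (limma adjusted p = 0.0388).

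Tap2 was at 44.5, 47.9 and 61.1 TPM in the YS lines, 48.3, 31.4 and 38.7 TPM in the FL lines and 27.2, 33.1 and 22.7 TPM in the BM lines. It differed by 0.86 ± 0.20 between YS and BM lines (limma adjusted p = 0.0158). This 1.82-fold difference was under the fold threshold, and the gene passed the adjusted p in each of 18 alternative settings.

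Tapbp had 152, 321 and 448 TPM in the YS lines, 255, 124 and 246 TPM in the FL lines and 165, 215 and 148 TPM in the BM lines. YS line 1 lay among the BM lines, and the other YS lines above them. Of the 75-base stretches of Tapbp, 1.36% occur in transcripts of other genes, among them its neighbour Zbtb22. The difference of 0.68 ± 0.41 did not pass the test (interval -0.25 to 1.62, limma adjusted p = 0.242). Without YS line 1 it was 1.12 with an adjusted p of 0.0424 by limma.

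The inducible proteasome subunits included the member with the largest difference. Psmb10, the inducible trypsin-like subunit, had 162, 163 and 213 TPM in the YS lines, 137, 84.2 and 107 TPM in the FL lines and 42.5, 64.5 and 32.7 TPM in the BM lines. No group overlapped another, with YS lines highest and BM lines lowest. Taken pair by pair, YS lines were all above BM lines in 30.3% of all tested genes. FL lines were all above BM lines in 31.0%, and YS lines all above FL lines in 12.6%. The share of genes with the full order was not counted. Psmb10 was 3.91-fold higher in YS than in the BM lines (1.97 ± 0.26, limma adjusted p = 0.00241) and 2.37-fold higher in FL than in the BM lines (1.25 ± 0.26, limma adjusted p = 0.0124). Both calls held in all 18 alternative settings. The YS against FL difference of 0.72 ± 0.26 did not pass (limma adjusted p = 0.133).

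Psmb8, the inducible chymotrypsin-like subunit, had 275, 339.6 and 475 TPM in the YS lines, 381, 229 and 290.0 TPM in the FL lines and 192, 214 and 123 TPM in the BM lines. All YS and all FL lines were above all BM lines (the FL lines of 31.0% of tested genes were). The YS against BM difference was 1.04 ± 0.28 (2.06-fold, limma adjusted p = 0.0262), and the FL against BM difference 0.77 ± 0.28 (1.71-fold, limma adjusted p = 0.0873, under the fold threshold).

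Psmb9, the inducible subunit that takes the place of Psmb6, had 94.6, 125 and 193 TPM in the YS lines, 130.4, 69.2 and 79.3 TPM in the FL lines and 66.2, 73.0 and 40.5 TPM in the BM lines. YS lines lay above BM lines, and FL line 2 among the BM lines. The YS against BM difference was 1.17 ± 0.34 (2.24-fold, limma adjusted p = 0.0338).

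Nlrc5, the class I transactivator, was at 47.8, 51.5 and 58.2 TPM in the YS lines, 47.2, 22.4 and 34.5 TPM in the FL lines and 25.2, 29.0 and 18.2 TPM in the BM lines. Every YS line was above every BM line and also above every FL line, as was the case in YS against FL lines for 12.6% of tested genes. The difference was 1.11 ± 0.26 against BM lines (2.16-fold, limma adjusted p = 0.0174) and 0.64 ± 0.26 against FL lines (limma adjusted p = 0.173). Ciita, the related class II transactivator, was between 0 and 0.74 TPM in the 9 lines, and its target H2-Ab1 at 0.79 TPM or less.

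In the FL against BM comparison, Psmb10 was the 1 member called, against 6.01% of all tested genes called higher, and Psmb8 joined it in passing the adjusted p alone, against 17.0%. In the YS against FL comparison no member passed either threshold by limma, against 1.95% of tested genes called higher and 6.20% past the adjusted p; at an unadjusted p under 0.05, 3 members did (H2-K1, Psmb10 and Nlrc5), against 13.0% of all tested genes that did so as higher. All 10 differences were above 0 there, with a median of 0.52 against 0.02 over all genes. Those of B2m (0.006) and H2-D1 (0.08) were close to 0. The median of the 10 was 0.26 without YS line 3 and 0.75 without FL line 1. The 10 genes moved together between lines, so these are not 10 separate observations. The number of members called in YS against BM lines thus exceeded that in FL against BM lines, but the direct YS against FL tests did not show that the groups differ.

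**Figure D2:**
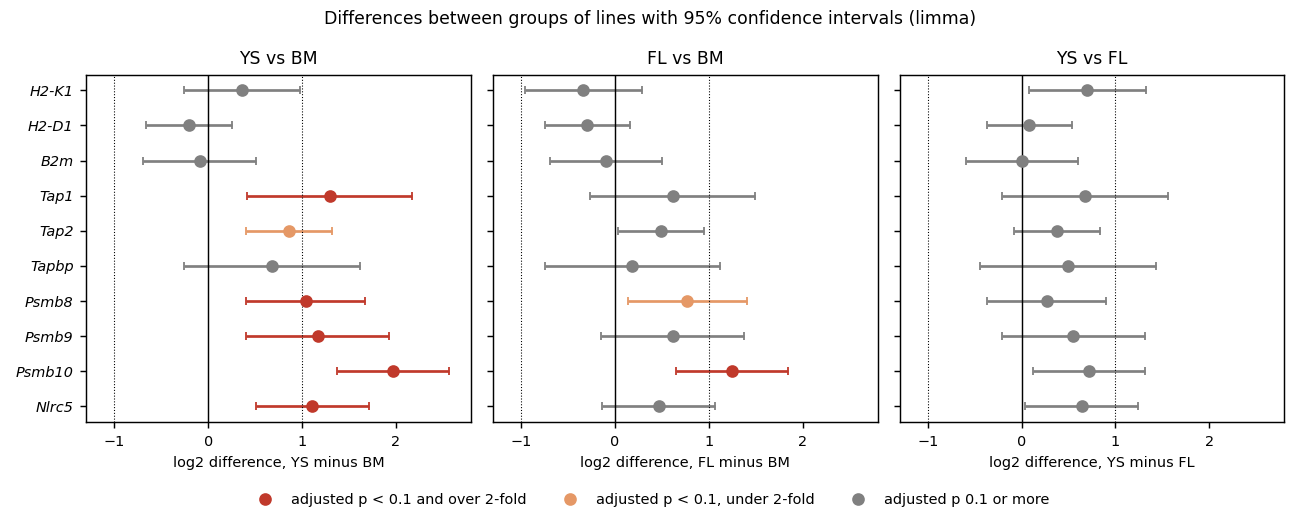
Differences in log2(TPM + 1) between groups of lines for the 10 genes, with 95% confidence intervals from limma; dotted lines mark a 2-fold difference. In YS against BM lines 5 genes are past both thresholds (red), in FL against BM lines Psmb10 alone, and in YS against FL lines none.

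The calls between YS and BM lines depended on single lines. BM line 2 was the highest BM line in 8 of the 10 genes, and without it 5 members were again called. Without BM line 3, the line lowest in all 10 genes, only Psmb10 was called; Tap1 and Psmb9 no longer passed the adjusted p (0.134 and 0.119 by limma), while Psmb8 and Nlrc5 passed it at under 2-fold. Without YS line 3, the members called were Tap1, Psmb10 and Nlrc5. Under quantile normalization or median-of-ratios scaling, which bring the median of all genes to within 0.02 of 0, the called members were Tap1, Psmb9 and Psmb10, and the same 6 genes as before passed the adjusted p.

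Each inducible subunit takes the place of 1 constitutive subunit: Psmb8 that of Psmb5, Psmb9 that of Psmb6 and Psmb10 that of Psmb7. The ratio of the 2 within a library does not depend on how the library was scaled. The TPM ratio of Psmb10 to Psmb7 was 0.489, 0.518 and 0.725 in the YS lines, 0.385, 0.276 and 0.317 in the FL lines and 0.138, 0.191 and 0.0944 in the BM lines. The 3 groups did not overlap. On the log2 scale the ratio differed by 2.04 between YS and BM lines, by 1.23 between FL and BM lines and by 0.81 between YS and FL lines (exact two-sided permutation p = 0.1 in each, the smallest that 3 lines against 3 allow; 0.18 adjusted over 9 ratio tests).

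The ratio of Psmb8 to Psmb5 was 0.750, 0.999 and 1.56 in the YS lines, 1.27, 0.831 and 0.901 in the FL lines and 0.712, 0.713 and 0.361 in the BM lines. YS and FL lines lay above BM lines, YS line 1 by little. The log2 differences were 0.89 and 0.79 (exact two-sided permutation p = 0.1 in both), and 0.10 between YS and FL lines (p = 0.7, exact permutation test).

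The ratio of Psmb9 to Psmb6 was 0.175, 0.195 and 0.364 in the YS lines, 0.231, 0.152 and 0.123 in the FL lines and 0.220, 0.179 and 0.109 in the BM lines. All groups overlapped, with log2 differences of 0.50 between YS and BM lines and -0.01 between FL and BM lines (exact two-sided permutation p = 0.5 and 1). Psmb6 itself was higher in YS and FL than in the BM lines, by 0.67 ± 0.17 and 0.62 ± 0.17 (limma adjusted p = 0.0200 and 0.0313), whereas Psmb5 and Psmb7 did not pass the test in any comparison. Over all 6 catalytic subunits, the inducible ones made up 30.0%, 32.6% and 43.9% of the TPM in the YS lines, 34.7%, 27.0% and 26.7% in the FL lines and 25.5%, 25.1% and 15.7% in the BM lines.

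**Figure D3:**
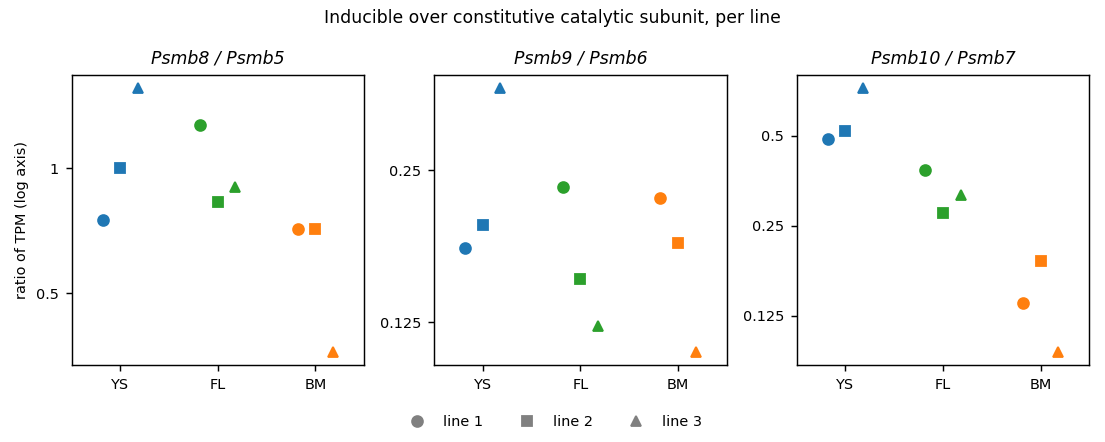
TPM of each inducible catalytic subunit over the constitutive subunit it replaces, in each line (log axes, a separate scale for each ratio; colours mark groups and symbols line numbers). The 3 groups are apart for Psmb10 over Psmb7, and overlap for Psmb9 over Psmb6.

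The 3 subunits also stood in different proportions to each other. Psmb8 was at 2.00 ± 0.28 times Psmb10 in the YS lines, 2.73 ± 0.04 in the FL lines and 3.87 ± 0.61 in the BM lines (SD, n = 3), with no overlap between groups. Its ratio to Psmb9 overlapped between groups, from 2.46 in YS line 3 to 3.66 in FL line 3. The ratios of this kind too were chosen after seeing the values and were not tested.

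The 10 genes shared their order among the lines of each group. YS line 3 was the highest and YS line 1 the lowest YS line in 10 of 10 genes, FL line 1 the highest and FL line 2 the lowest FL line in 10 of 10, and BM line 3 the lowest BM line in 10 of 10. Among all 11753 tested genes, 21.6% had that order in the YS lines, 25.4% in the FL lines and 33.0% that lowest BM line, and 3.01% had all of them. H2-K1, H2-D1 and B2m, which did not pass the test between groups, followed the same order as the others. The order was read from the members themselves, and the genes of a line share its library, so it is given without a test. The spread from the lowest to the highest line ran from 1.22-fold (Nlrc5) to 2.95-fold (Tapbp) within YS lines, from 1.31-fold (H2-D1) to 2.38-fold (Tap1) within FL lines and from 1.14-fold (H2-D1) to 1.97-fold (Psmb10) within BM lines.

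Among the tested genes outside the set, Uba7, Oas2, Ly6e, Cxcl10 and Igtp had the pattern most like the mean of the 10. Their Pearson r over the 9 lines was 0.998, 0.988, 0.986, 0.981 and 0.978, and it was 0.960 to 0.997 after each group's mean was taken out, as a description of lines that share a library across genes. All 5 are known as interferon-stimulated genes. Uba7, the activating enzyme for ISG15, was at 52.3, 86.0 and 121 TPM in the YS lines, 82.0, 32.7 and 53.8 TPM in the FL lines and 39.0, 47.0 and 25.5 TPM in the BM lines. Cxcl10, a chemokine, had the widest range, from 10.9 TPM in BM line 3 to 589 TPM in YS line 3. Of the members, each of which is itself part of the common mean, Tap1 was closest to that mean (r = 0.992). H2-D1 was farthest (r = 0.269, or 0.861 with group means taken out).

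**Figure D4:**
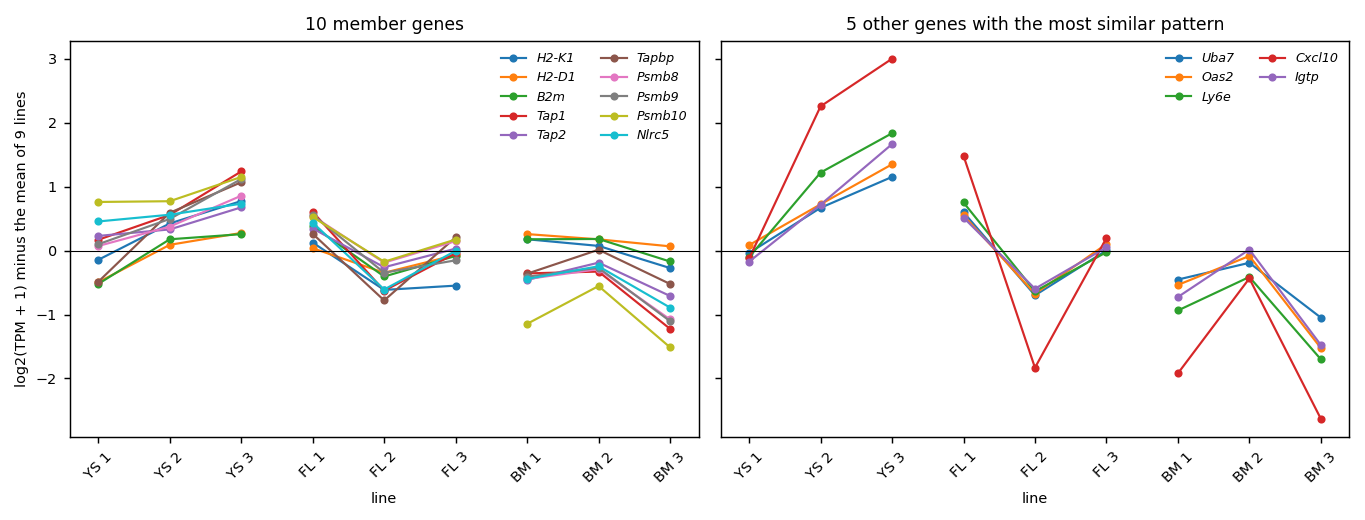
log2(TPM + 1) of each gene minus its mean over the 9 lines, for the 10 members (left) and for Uba7, Oas2, Ly6e, Cxcl10 and Igtp (right). Segments join the values of a gene within a group and imply no order of the lines; YS line 3, FL line 1 and BM lines 1 and 2 stand above the lowest line of their group in every trace.

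The wider pathway was read from 6 lists of 63 related genes, of which 56 were tested. Between YS and BM lines 7 were called higher and 2 lower, against 7.57% and 5.22% of all tested genes; without BM line 2 these were 10 and 1. Between FL and BM lines 4 were called higher and 1 lower, against 6.01% and 4.30%. None was called between YS and FL lines by limma, where 2 (Psme1 and Psme2) passed the adjusted p alone.

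Of the 15 tested genes of interferon signaling and IRFs, 4 were called higher in YS than in the BM lines (among them Stat2, Irf8 and Socs1), 8 passed the adjusted p as higher and 1 (Jak2) as lower. Of all tested genes, 7.57% were called higher, and 23.5% passed the adjusted p as higher and 14.4% as lower. Stat2, which acts downstream of type I interferon, differed by 1.63 ± 0.43 (YS against BM lines, limma adjusted p = 0.0237) and by 1.16 ± 0.43 (FL against BM lines, limma adjusted p = 0.0929). Socs1, a feedback inhibitor of this pathway, differed by 1.40 ± 0.53 between YS and BM lines (limma adjusted p = 0.0805). Irf8, a factor of the myeloid lineage, was higher in YS and in FL than in the BM lines, by 1.54 ± 0.26 and 1.11 ± 0.26 (limma adjusted p = 0.00482 and 0.0177), and within YS lines it stood in another order, 112, 61.8 and 53.4 TPM in lines 1, 2 and 3. Irf1, which binds the ISRE of class I genes, had a YS against BM difference of 0.65 ± 0.31 and did not pass (limma adjusted p = 0.144).

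The members' order among lines was present in 6 of these 15 genes, among them Ifnb1, Stat2, Irf1, Irf9 and Socs1. Ifnb1, which encodes interferon beta, was at 0.60, 1.90 and 4.95 TPM in the YS lines, 3.20, 0 and 1.91 TPM in the FL lines and 0.21, 0.20 and 0 TPM in the BM lines. Its YS against BM difference of 1.42 ± 0.60 did not pass the test (limma adjusted p = 0.109). Ifng, the gene of interferon gamma, was listed at 0 in all 9 lines. Of its receptor, Ifngr1 did not pass in any comparison, and Ifngr2 was higher in FL than in the BM lines by 0.58 ± 0.13 (limma adjusted p = 0.0157) and in YS than in the BM lines by 0.37 ± 0.13 (limma adjusted p = 0.0612).

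Of the 8 PA28 and proteasome assembly genes, Psme1 was called higher in YS than in the BM lines. There 4 passed the adjusted p as higher (Psme1, Psme2, Psme3 and Psmg1) and 1 as lower (Psmg2). The shares over all tested genes were 7.57% called higher, and 23.5% and 14.4% past the adjusted p as higher and lower. Psme1 and Psme2 encode the PA28 cap, which opens the proteasome and is induced together with the inducible subunits. Psme1 had 425, 413 and 549 TPM in the YS lines, 311, 231 and 239.8 TPM in the FL lines and 205, 265 and 189 TPM in the BM lines. It was higher in the YS lines than in the BM lines, by 1.07 ± 0.18 (limma adjusted p = 0.00482), and than in the FL lines, by 0.83 ± 0.18 (limma adjusted p = 0.0448). Psme2 was higher in the YS lines by 0.64 ± 0.22 against BM lines and 0.69 ± 0.22 against FL lines (limma adjusted p = 0.0570 and 0.0955). Neither passed between FL and BM lines. Psmg1 and Psmg2, whose products pair as an assembly chaperone of the proteasome, went opposite ways between YS and BM lines, by 0.70 ± 0.19 and -0.72 ± 0.12 (limma adjusted p = 0.0252 and 0.00440).

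Of the 9 loading and peptide trimming partners (among them calreticulin, ERp57 and the trimming peptidase ERAP1) none was called in any comparison, and 2 (Tpp2 and Lap3) passed the adjusted p as higher in YS than in the BM lines, against 23.5% of all genes. Their median difference was 0.15, close to the 0.11 of all tested genes. Of the 8 tested factors of the class I enhanceosome, the complex through which NLRC5 acts on promoters, none was called. Nfyc passed as higher and Nfyb as lower in YS than in the BM lines, against 23.5% and 14.4% of all tested genes. Rfx5 had a YS against BM difference of -0.01 ± 0.15 (limma adjusted p = 0.957).

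Among the 13 tested other class I and class I-like genes, H2-T24 and Fcgrt passed both thresholds as higher in YS against BM lines. H2-M2 and Mr1 passed both as lower. Over all tested genes, 7.57% did so as higher and 5.22% as lower. H2-T24, a nonclassical class I gene, had 21.6, 62.6 and 72.5 TPM in the YS lines, 65.8, 32.4 and 66.4 TPM in the FL lines and 5.77, 7.24 and 2.28 TPM in the BM lines. It was higher by 3.06 ± 0.52 in YS and by 3.23 ± 0.52 in the FL lines than in the BM lines (limma adjusted p = 0.00526 and 0.00405). H2-M2, another nonclassical gene, went the other way, with 0.86, 1.32 and 3.43 TPM in the YS lines, 7.21, 3.37 and 2.75 TPM in the FL lines and 135.5, 10.03 and 93.6 TPM in the BM lines. BM line 2 was far below the other BM lines, and H2-M2 differed by -4.29 ± 0.85 (YS against BM lines, limma adjusted p = 0.00918) and -3.35 ± 0.85 (FL against BM lines, limma adjusted p = 0.0264).

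Fcgrt, the heavy chain of the neonatal Fc receptor, which pairs with beta-2 microglobulin, was higher by 1.27 ± 0.31 in YS and by 1.90 ± 0.31 in the FL lines than in the BM lines (limma adjusted p = 0.0193 and 0.00436). Mr1, which presents vitamin metabolites, was lower by 2.63 on the log2 scale in YS than in the BM lines (limma adjusted p = 0.0594), with YS lines at 10.8, 5.93 and 0.07 TPM and BM lines at 23.7, 26.4 and 29.4 TPM. H2-Q4, H2-Q6, H2-Q7, H2-T10 and H2-T22 followed the members' full order of lines and did not pass the test between groups; 17.9% of the 75-base stretches of H2-Q6 and 22.6% of those of H2-Q7 occur in transcripts of other genes.

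The class II genes on either side of the Psmb9, Tap1, Psmb8 and Tap2 cluster were read for comparison. H2-DMb1, which encodes a class II peptide-loading chain, had 51.7, 46.1 and 18.8 TPM in the YS lines, 56.8, 59.1 and 82.4 TPM in the FL lines and 64.4, 54.0 and 53.3 TPM in the BM lines. YS line 3 was the lowest line here and the highest in each of the 4 cluster genes, and the YS against BM difference was -0.66 (limma adjusted p = 0.174). On the other side, H2-Ob, a chain of the class II peptide-loading inhibitor, was at 0.93 to 1.93 TPM in the YS lines and 0.10 TPM or less in the BM lines, and its difference was 1.11 (limma adjusted p = 0.0294).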

How the data were processed

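RNA-seq of 9 macrophage lines (3 YS, 3 FL, 3 BM) was analysed. The authors deposited 1 table of TPM for 24411 genes. Per the submitters' processing notes, Trim Galore 0.6.6, STAR 2.7.9a and RSEM 1.3.3 were used, and the genome build and annotation are not given in the sources used here. The authors' own tests used DESeq2 on raw counts, not used here. TPM keeps no depth, so no counting error is given, and precision comes from the spread between lines.

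From the TPM, log2(TPM + 1) was computed for the 11753 genes that reached 1 TPM in 3 or more lines; thresholds for calls follow the study's. limma 3.58.1 (R 4.3.3) was fitted over all 9 lines with an intensity trend, with Benjamini-Hochberg adjustment in each of 3 comparisons, and was tested on simulated data. A fold change on this scale understates that of low genes. Ratios of subunits were compared by exact permutation tests (scipy 1.17.1). Alternatives changed the pseudocount, filter, scaling, trend, libraries, replicate block and lines.

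Named genes were the 10 members, called genes of the 6 related lists (at most 3 per list and comparison), a set of fixed partners and the 5 genes most like the members. Stat2 and Socs1 fall under the called genes; Psme3, Psmg1, Psmg2, Tpp2, Lap3, Nfyb, Nfyc, Jak2, Irf9, Ifnb1, Ifng, the H2-Q and H2-T genes other than H2-T24, and the neighbours were named after their values were seen. One gene of the related lists is not reported here. The members and lists were chosen with earlier results of these data known. Sequences, gene order and gene positions came from RefSeq (GRCm38.p6), which may not be the build of the deposited table, and shared 75-base stretches from GENCODE M21.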

Additional observations from a re-analysis of the deposited data

How the results depend on the processing

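In 18 alternatives, Psmb10 stayed called in YS against BM lines (1.75 to 2.22) and in FL against BM lines (1.02 to 1.5); Tap1 stayed called between YS and BM lines in 17, Psmb9 in 16, Nlrc5 in 15 and Psmb8 in 14. The members called between YS and BM lines were 5 in the reported fit, 3 with quantile normalization and 3 with median-of-ratios scaling, and 1 to 6 when each line was left out (1 without BM line 3, 3 without YS line 3, 6 without YS line 1). Members past the adjusted p in FL against BM lines were 2, and 1 without the filter, with quantile normalization, with median-of-ratios scaling, without the trend and with the replicate block; leaving out a line gave 1 to 4, and 0 to 3 in YS against FL lines. Related genes called in FL against BM lines were 5, and 8 with only the 6 libraries of those groups; leaving out a line gave 3 to 8. In YS against FL lines they were 0, 1 with a pseudocount of 4, and 0 to 3 leaving out a line. The cause of these changes was not tested.

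Signs turned for values near 0. With quantile normalization B2m was 0.0424 in YS against BM and 0.0298 in FL against BM lines, and H2-D1 -0.0452 in YS against FL lines; with median-of-ratios scaling B2m was -0.0124 in YS against FL lines. Leaving out a line gave -0.37 to 0.0162 for H2-D1 and -0.23 to 0.15 for B2m (YS against BM), -0.31 to 0.0870 for B2m (FL against BM), and -0.0755 to 0.31 for H2-D1 and -0.18 to 0.25 for B2m (YS against FL). It also gave -0.18 to 0.34 for the Psmb8 to Psmb5 ratio (YS against FL) and -0.29 to 0.21 for the Psmb9 to Psmb6 ratio (FL against BM).

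Over all genes, quantile normalization turned 890 higher and 614 lower calls (YS against BM) into 724 and 763. In YS against FL lines 446 genes were called, 280 with a pseudocount of 4, 81 with only the 6 libraries, and 175 to 549 leaving out a line. The line numbers are shared across groups without a stated pairing, and same-numbered lines did not deviate together (r between -0.118 and 0.0878), so the replicate block is no paired analysis; with it, members called were 5 for YS against BM, 1 for FL against BM and 0 for YS against FL. TPM carries no depth, so genes near 1 TPM, such as Ifnb1 and Ciita, cannot be given a counting error.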
